A study of Mus musculus with 36 samples.

Results

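The cathepsins, the subunits of the lysosomal proton pump and the Lamp membrane proteins were followed in 3T3-L1, a line of mouse preadipocytes that an adipogenic cocktail drives towards fat cells. Genes were taken by symbol, from names that begin with Cts and a single letter, with Atp6v0 or Atp6v1, or with Lamp and a digit. This gave 47 of the 52505 genes in the expression table: 18 cathepsin genes, 11 of the V0 sector of the pump, 14 of the V1 sector and 4 Lamp genes. Of these, 29 reached a mean of at least 1 FPKM (fragments scaled to gene length and to the reads of the library) in at least 1 of the 4 groups and are described here. The other 18 stayed below 1 FPKM in every group, and 5 of them, Atp6v1g3, Ctsg, Ctsj, Ctsm and Ctsq, were listed at 0 in all 12 libraries. The nearest gene below the limit was Ctsw, with a highest group mean of 0.909 FPKM, and the nearest above it was Atp6v0a4, with 3.01 FPKM.

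Cells labelled as Zfp217 knockout (zfp217-/-, here KO-labelled) and cells labelled wild type (WT) were each sampled at day 0 and at day 2 of the cocktail, in 3 RNA-seq libraries per group. Both genotypes are the same line, 3T3L1, grown in DMEM with serum, and the cocktail (MDI in the labels) held dexamethasone, isobutyl-methylxanthine, insulin and indomethacin. Whether the KO-labelled cells are a single clone is not given in the sources used here, and separate cultures are not named in the labels either. The p-values therefore speak only of the scatter among the sequenced libraries, part of which may be technical. Another 24 samples of the series, for RNA methylation, were not analysed here.

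Lysosomes are the acidic compartments in which cells break down proteins, lipids and sugars. Their acid comes from the vacuolar ATPase, a rotary pump whose V1 sector in the cytosol splits ATP and whose V0 sector in the membrane carries protons inward. Cathepsins are proteases that work in that acid, and Lamp1 and Lamp2 are the heavily glycosylated proteins that line the lysosomal membrane.

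Libraries held 18075127 to 23117459 reads, recovered from the steps of the FPKM values. The message of Zfp217, the targeted gene, went against the label: it stood at 25.97 ± 0.883 FPKM in KO-labelled and 21.96 ± 0.279 in WT libraries at day 0 (SD, n = 3 each; log2 change 0.23, adjusted p = 7.58e-05). Zfp217 at day 2 stood at 22.59 ± 0.858 and 15.06 ± 0.369 FPKM in KO-labelled and WT libraries (log2 change 0.55, adjusted p = 2.41e-08). Every direction below is therefore one between libraries as labelled. WT day 0 replicate 3 stood apart, with the mitochondrial ribosomal RNA mt-Rnr1 at 264 FPKM against 7.01 and 5.87 FPKM in its group, while KO-labelled day 0 libraries held 379 to 396 FPKM and all day 2 libraries 13.5 to 19.9 FPKM. The heat shock gene Hsp90aa1 marked WT day 0 replicate 3 too, at 886 FPKM against 27.2 and 28.5 FPKM in its group. KO-labelled day 0 libraries held 174 to 178 FPKM of Hsp90aa1 and all day 2 libraries 4.70 to 17.7 FPKM. In WT day 0 replicate 3 the 24 described genes that averaged 5 FPKM or more lay between 0.833 and 1.067 times the mean of the other WT day 0 libraries. Without it the counts of called genes given below differed in 2 of 10 cases, by 1 gene each: 8 in place of 9 higher at day 2 in KO-labelled cells, and 18 in place of 17 lower at day 2 in WT cells.

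In KO-labelled cells most cathepsins and both Lamp genes were higher than in WT cells at both days, while 6 of 9 V1 subunits of the pump were lower at each day. After TPM scaling 5 V1 subunits were lower at each day, and after quantile normalization 5 at day 0 and 4 at day 2. Of 28 genes that could be tested, 15 were higher and 11 lower in KO-labelled cells at day 0, and 16 were higher and 9 lower at day 2 (adjusted p below 0.05, limma over 12961 genes). Much of the transcriptome passed the same test: 38.3% of all genes tested were higher and 44.2% lower at day 0, and 40.8% were higher and 40.6% lower at day 2. The median log2 change of the 28 genes was 0.22 at day 0, beside -0.06 over all genes tested, and 0.39 at day 2, beside 0.00. A change of at least 2-fold was seen in 7 genes that were higher and 1 that was lower at day 0, and in 5 and 2 genes at day 2. Over all 12961 genes tested, 1345 were higher and 1546 lower by at least 2-fold at day 0, and 1671 and 1485 at day 2. In bulk RNA, fewer cells that express a gene and less RNA per cell cannot be told apart.

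**Figure D1:**
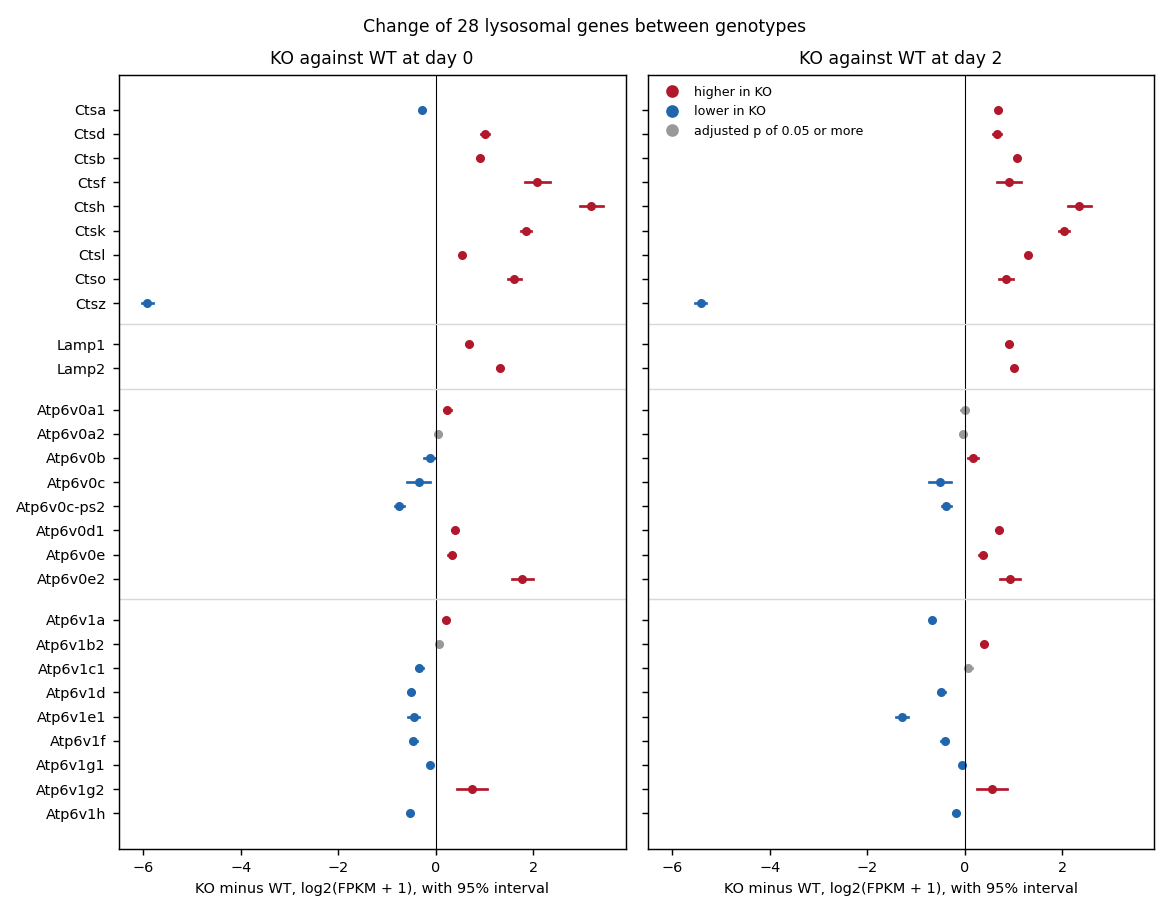
Difference between KO-labelled and WT libraries, in log2(FPKM + 1), for the 28 genes tested, with day 0 on the left and day 2 on the right; points are fitted changes from 3 libraries per group and bars their 95% intervals. Ctsz lies far to the left at both days, 7 of 9 cathepsins at day 0 and 8 of 9 at day 2 lie to the right, and the small shift of Atp6v1g1 to the left turns to the right after quantile normalization.

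The cathepsins split by family less than by gene. At day 0, 7 of 9 were higher and 2 lower in KO-labelled cells, with a median log2 change of 1.00, and at day 2, 8 were higher and 1 lower, with a median of 0.91. These counts were the same after TPM, median-of-ratios and quantile scaling. Over all genes tested in the reported fit, 38.3% were higher and 44.2% lower at day 0, and 40.8% and 40.6% at day 2. Summed over the 9 genes, cathepsin message was 1353 ± 10.2 FPKM in KO-labelled and 1016 ± 4.87 FPKM in WT libraries at day 0 (SD, n = 3 each). At day 2 the sums were 810 ± 12.4 FPKM in KO-labelled and 455 ± 5.30 FPKM in WT libraries.

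Ctsz (ENSMUSG00000016256), which encodes cathepsin Z, a carboxypeptidase of the papain family, showed the sharpest difference and ran opposite to most of its family. The gene lies on the minus strand of chr2:174427494-174439039 (GRCm38.p6). At day 0 it stood at 0.0384, 0.0645 and 0.0328 FPKM in the KO-labelled libraries, against 61.5, 60.5 and 64.9 FPKM in WT libraries. At day 2 the KO-labelled libraries held 0.186, 0.0729 and 0.167 FPKM and the WT libraries 49.7, 46.6 and 46.7 FPKM. All 6 KO-labelled libraries were near the floor and all 6 WT libraries were far above it, with no overlap. In reads, the day 0 libraries held 4 in all in KO-labelled and 5684 in WT cells, a level 1364-fold lower in KO-labelled cells (95% exact interval 532.5 to 5009, counting error only). At day 2 they held 13 and 4410 reads, 328.9-fold lower in KO-labelled cells (interval 192.1 to 618.2). The fitted log2 changes, -5.92 (SE 0.05, adjusted p = 1.61e-15) and -5.41 (SE 0.05, adjusted p = 1.34e-15), are bounded by the pseudocount of 1, and with a pseudocount of 0.1 they were -8.75 and -7.66.

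The neighbours of Ctsz that passed the filter, Gnas, Nelfcd, Atp5e and Prelid3b, were lower in KO-labelled cells too, but were still expressed. Nelfcd, a subunit of the negative elongation factor, whose annotated end overlaps that of Ctsz, stood at 15.8 ± 0.355 FPKM in KO-labelled and 40.5 ± 0.764 FPKM in WT libraries at day 0 (log2 change -1.31, SE 0.05, adjusted p = 7.41e-11). At day 2 Nelfcd stood at 18.8 ± 1.42 FPKM in KO-labelled and 58.4 ± 1.61 FPKM in WT libraries (log2 change -1.59). Prelid3b, a lipid transfer protein of mitochondria, stood at 45.7 ± 0.332 and 125 ± 2.09 FPKM in KO-labelled and WT libraries at day 0 (log2 change -1.43), and at 49.8 ± 1.73 and 215 ± 7.84 FPKM at day 2 (log2 change -2.09). Atp5e, the epsilon subunit of mitochondrial ATP synthase, had a log2 change of -0.26 at day 0 and of -0.79 at day 2, and Gnas, the stimulatory G protein alpha subunit, had -0.95 and -0.80. All of these 8 changes passed the test, and in each of these 4 genes every KO-labelled library was below every WT library of the same day. Of the neighbours under the filter, Gnasas1, an antisense RNA of the Gnas locus, was listed at 0 in all 6 KO-labelled libraries, against 0.668, 0.414 and 0.492 FPKM in WT libraries at day 0 and 1.38, 0.703 and 0.826 FPKM at day 2. The strand setting is not known, so reads of Gnasas1 and Gnas may not be told apart. Mir298 was listed at 0 in all KO-labelled and in the WT day 2 libraries, against 0.567, 0.594 and 1.15 FPKM in WT libraries at day 0. Tubb1, between Ctsz and Atp5e, was at most 0.0331 FPKM in any library. Zfp217 lies on the same chromosome, 4.28 megabases from Ctsz, and was not lower in KO-labelled cells, as given above. Over the 1014 tested genes of chromosome 2 the median log2 change was -0.22 at both days. Whether the change of Ctsz is tied to its position was not tested.

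**Figure D2:**
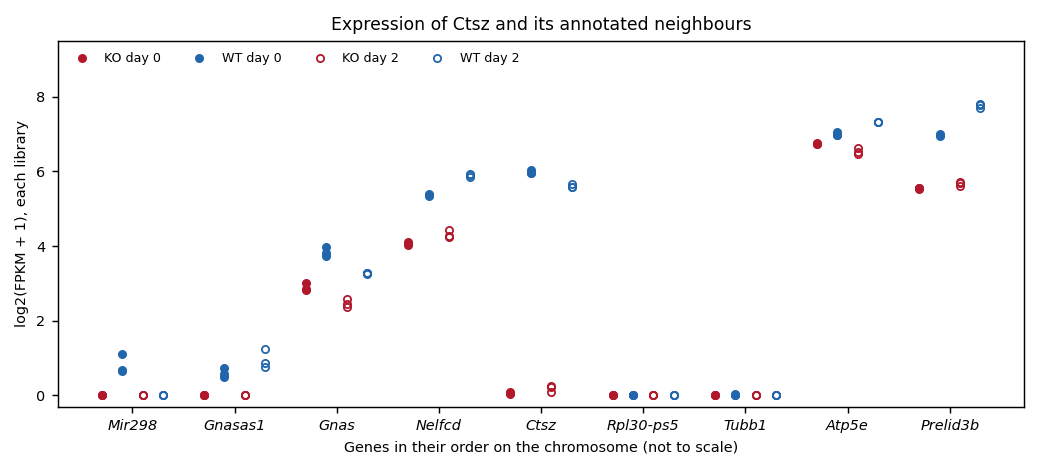
Expression of Ctsz and its annotated neighbours, in chromosome order, as log2(FPKM + 1) with 1 point per library; filled points are day 0, open points day 2, red KO-labelled and blue WT. Ctsz is near 0 in all 6 KO-labelled libraries, whereas Nelfcd, Atp5e and Prelid3b are lower there but remain between 15.5 and 107 FPKM.

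Ctsh (ENSMUSG00000032359, chr9:90054267-90076095), the gene of the aminopeptidase cathepsin H, went the other way and was nearly silent in WT cells. The KO-labelled day 0 libraries held 11.3, 11.6 and 13.3 FPKM, against 0.568, 0.446 and 0.287 FPKM in WT libraries. At day 2 it was at 5.18, 3.96 and 4.42 FPKM in KO-labelled libraries and at 0.132, 0.0996 and 0 FPKM in WT libraries. The groups did not overlap at either day. From 723 and 27 reads at day 0 the level was 27.9-fold higher in KO-labelled cells (95% exact interval 19.0 to 42.6, counting error only), and from 278 and 5 reads at day 2 it was 57.35-fold higher (interval 24.3 to 178). The log2 changes on the scale with a pseudocount of 1 were 3.19 (SE 0.10, adjusted p = 4.45e-11) and 2.35 (SE 0.10, adjusted p = 6.38e-10).

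Ctsf (ENSMUSG00000083282, chr19:4855165-4860918) encodes cathepsin F, another papain-like protease. It stood at 4.20, 4.50 and 4.85 FPKM in KO-labelled and 0.235, 0.469 and 0.214 FPKM in WT libraries at day 0. Ctsf at day 2 was at 1.38, 1.12 and 1.59 FPKM in KO-labelled and 0.110, 0.272 and 0.394 FPKM in WT libraries. Every KO-labelled library was above every WT library of its day, at low levels throughout. The log2 change was 2.08 (SE 0.12, adjusted p = 6.03e-09) at day 0 and 0.91 (SE 0.12, adjusted p = 1.37e-05) at day 2. On recovered reads, where the pseudocount plays little part, these were 3.93 and 2.54, and the counts of 544 against 38 reads at day 0 and 168 against 32 reads at day 2 gave ratios of 14.9 and 5.42.

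Ctsk (ENSMUSG00000028111, chr3:95499210-95509387) encodes cathepsin K, the collagen-degrading protease best known from osteoclasts and also made by fibroblasts. It was at 79.6, 80.9 and 78.7 FPKM in KO-labelled and 22.0, 21.3 and 21.4 FPKM in WT libraries at day 0. At day 2 it was at 23.4, 27.1 and 25.7 FPKM in KO-labelled and 5.49, 5.66 and 5.18 FPKM in WT libraries. The ratio of means was 3.70 at day 0 and 4.66 at day 2, with log2 changes of 1.84 (SE 0.05, adjusted p = 5.31e-12) and 2.03 (SE 0.05, adjusted p = 1.78e-12). The level of Ctsk fell with the cocktail in both genotypes, and KO-labelled cells at day 2 were as high as 23.4 to 27.1 FPKM where WT cells at day 0 had 21.3 to 22.0 FPKM.

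Markers of macrophages and osteoclasts, the cell types most associated with Ctsk, were looked at beside it. Of 20 such genes only 4 passed the filter, with 3 higher and 0 lower in KO-labelled cells at each day. Among all genes tested 38.3% were higher and 44.2% lower at day 0, and 40.8% and 40.6% at day 2. The summed level of the 20 was 32.7 to 36.3 FPKM in KO-labelled and 13.9 to 15.6 FPKM in WT libraries at day 0, and 17.5 FPKM and 7.36 to 9.06 FPKM at day 2. At day 0 most of it came from Lyz2, the lysozyme gene (14.8 ± 0.156 and 1.5 ± 0.244 FPKM in KO-labelled and WT libraries at day 0, 1.65 ± 0.263 and 0.0603 ± 0.0439 FPKM at day 2), from Cd14, the lipopolysaccharide co-receptor (10.6 ± 0.803 and 8.94 ± 0.512 FPKM, then 4.6 ± 0.35 and 1.19 ± 0.0667 FPKM), and from Aif1 (5.51 ± 1.53 and 1.64 ± 0.425 FPKM, then 3.06 ± 0.502 and 0.110 ± 0.0802 FPKM). At day 2 the highest of the 20 was Cd68, a lysosomal glycoprotein that is in the list of lysosomal membrane proteins too, with a mean of 6.09 FPKM in KO-labelled and 5.98 FPKM in WT libraries. Fcer1g, an Fc receptor subunit, averaged 1.2 and 0.331 FPKM in KO-labelled and WT libraries at day 0, and 0.939 and 0.734 FPKM at day 2. Oscar, an osteoclast receptor, averaged 0.45 and 0.151 FPKM at day 0, and 0.538 and 0.148 FPKM at day 2. The other 14 had means of at most 0.196 FPKM in every group, among them the osteoclast genes Dcstamp, Ocstamp, Calcr and Acp5 and the macrophage genes Adgre1, Csf1r and Itgam. Over the whole list, 7 genes in KO-labelled and 8 in WT cells were at 0 in every library of the group at day 0, and 4 and 9 at day 2. The part of such cells in the level of Ctsk was not tested.

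Ctso (ENSMUSG00000028015, chr3:81932601-81956725), the gene of cathepsin O, was at 15.7, 16.4 and 17.1 FPKM in KO-labelled and 4.38, 5.27 and 4.53 FPKM in WT libraries at day 0. At day 2 Ctso was at 9.63, 10.1 and 10.6 FPKM in KO-labelled and 5.37, 5.16 and 5.00 FPKM in WT libraries. All KO-labelled libraries stood above all WT libraries, with log2 changes of 1.61 (SE 0.06, adjusted p = 2.02e-10) and 0.85 (SE 0.06, adjusted p = 8e-08).

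The abundant proteases Ctsd, Ctsb and Ctsl were higher too, at day 0 by smaller factors than Ctso, Ctsk, Ctsf and Ctsh. At day 2 Ctsb and Ctsl had larger log2 changes than Ctso. Ctsd (ENSMUSG00000007891, chr7:142375910-142387827), the gene of the aspartic protease cathepsin D, was at 273, 277 and 284 FPKM in KO-labelled and 144, 138 and 133 FPKM in WT libraries at day 0. At day 2 Ctsd was at 208, 191 and 207 FPKM in KO-labelled and 128, 124 and 127 FPKM in WT libraries. Its log2 change was 1.00 (SE 0.04, adjusted p = 1.28e-10) at day 0 and 0.67 (SE 0.04, adjusted p = 4.92e-09) at day 2. Ctsb (ENSMUSG00000021939, chr14:63122462-63145923), the gene of the cysteine protease cathepsin B, was at 198, 205 and 203 FPKM in KO-labelled and 108, 107 and 108 FPKM in WT libraries at day 0. Ctsb at day 2 was at 151, 155 and 159 FPKM in KO-labelled and 73.5, 73.3 and 72.3 FPKM in WT libraries. The log2 change of Ctsb was 0.90 (SE 0.02, adjusted p = 3.57e-12) at day 0 and 1.07 (SE 0.02, adjusted p = 5.8e-13) at day 2. For Ctsl (ENSMUSG00000021477, chr13:64361890-64370772), the gene of cathepsin L and the most abundant cathepsin message in KO-labelled cells, values were 463, 457 and 464 FPKM in KO-labelled and 315, 323 and 317 FPKM in WT libraries at day 0. At day 2 they were 270, 264 and 268 FPKM in KO-labelled and 108, 109 and 108 FPKM in WT libraries. Its difference between genotypes was larger at day 2, with a log2 change of 1.3 (SE 0.02, adjusted p = 2.69e-14), than at day 0, with 0.53 (SE 0.02, adjusted p = 7.27e-11), and the interaction was 0.76 (SE 0.03, adjusted p = 1.21e-10). In none of the 3 genes did the genotypes overlap at either day.

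Ctsa, the gene of the serine carboxypeptidase cathepsin A that also protects sialidase and beta-galactosidase, turned round between the days. It stood at 299 ± 0.511 FPKM in KO-labelled and 362 ± 4.00 FPKM in WT libraries at day 0 (log2 change -0.28, SE 0.02, adjusted p = 2.48e-07), and at 144 ± 3.38 FPKM against 89.0 ± 2.03 FPKM at day 2 (log2 change 0.69, SE 0.02, adjusted p = 4.42e-11). Ctsa was the most abundant cathepsin message in WT cells at day 0. At day 2 it stood below Ctsd and Ctsl there.

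Both Lamp genes were higher in KO-labelled cells at both days under every scaling tried. Lamp2 (ENSMUSG00000016534, chrX:38399647-38456460), whose isoforms include the receptor of chaperone-mediated autophagy, was at 456, 439 and 459 FPKM in KO-labelled and 178, 184 and 183 FPKM in WT libraries at day 0. Lamp2 at day 2 was at 289, 287 and 286 FPKM in KO-labelled and 143, 141 and 141 FPKM in WT libraries. The genotypes did not overlap, and the log2 changes were 1.31 (SE 0.02, adjusted p = 1e-13) and 1.01 (SE 0.02, adjusted p = 6.39e-13). Lamp1, its close relative, stood at 536 ± 6.52 FPKM in KO-labelled and 336 ± 7.99 FPKM in WT libraries at day 0, and at 269 ± 10.4 FPKM against 143 ± 1.03 FPKM at day 2 (log2 changes 0.67 and 0.91, SE 0.03 each).

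**Figure D3:**
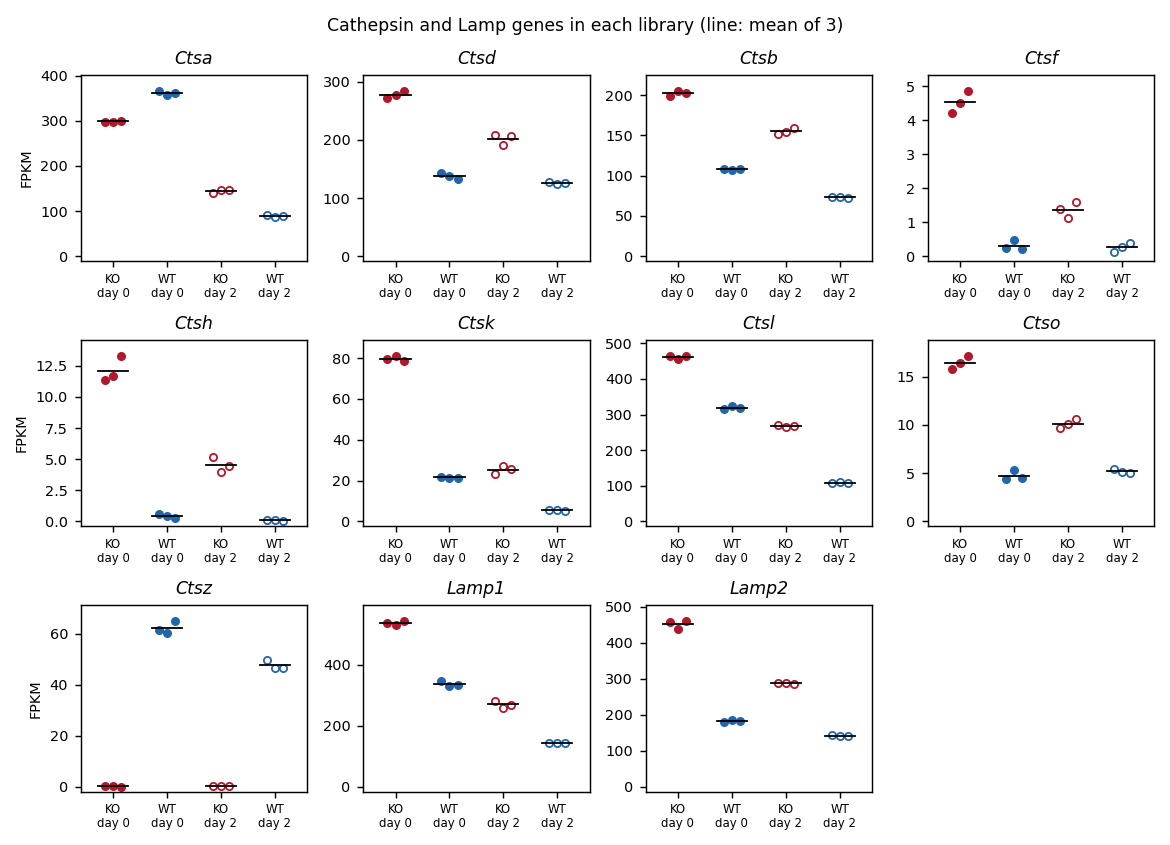
FPKM of the 9 cathepsin and 2 Lamp genes in each of the 12 libraries, with red for KO-labelled and blue for WT, filled for day 0 and open for day 2, and lines at group means (n = 3). Ctsz is near 0 in KO-labelled libraries and Ctsh near 0 in WT libraries, and Ctsa is the only cathepsin here whose genotypes change order between the days.

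The pump genes are given by sector, and the difference between the sectors was not tested. In V0, 4 of 8 tested genes were higher and 3 lower in KO-labelled cells at day 0, with a median log2 change of 0.14, and 4 were higher and 2 lower at day 2, with a median of 0.09. After TPM, median-of-ratios or quantile scaling the day 0 counts were 5 higher and 2 lower. In V1, 2 of 9 genes were higher and 6 lower at both days, with medians of -0.34 and -0.18. The shares over all genes tested were 38.3% higher and 44.2% lower at day 0, and 40.8% and 40.6% at day 2. Quantile normalization left 3 V1 genes higher and 5 lower at day 0, and 3 higher and 4 lower at day 2, with Atp6v1g1 among the higher at day 2. TPM scaling gave 3 higher and 5 lower at both days. Median-of-ratios scaling gave 3 higher and 6 lower at day 0, and 2 higher and 6 lower at day 2. Summed V1 message was 664 ± 4.98 FPKM in KO-labelled and 765 ± 0.260 FPKM in WT libraries at day 0, and 620 ± 8.97 FPKM against 807 ± 3.40 FPKM at day 2. Summed V0 message was 568 ± 2.19 FPKM in KO-labelled and 643 ± 17.6 FPKM in WT libraries at day 0, and 714 ± 17.0 FPKM against 635 ± 11.2 FPKM at day 2. The day 0 direction of the V0 sum rests on Atp6v0c-ps2, a copy of uncertain level described with Atp6v0c. Without it the sum was 390.6 ± 3.62 FPKM in KO-labelled and 344 ± 8.03 FPKM in WT libraries at day 0, and 562 ± 6.69 FPKM against 436 ± 11.5 FPKM at day 2.

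Within V0, the a subunits line the path of the protons and come in several isoforms. Atp6v0a1 stood at 40.7 ± 0.460 FPKM in KO-labelled and 34.4 ± 0.615 FPKM in WT libraries at day 0 (log2 change 0.24, adjusted p = 2.74e-05), and at 49.4 ± 2.03 and 49.2 ± 1.42 FPKM at day 2, where it was not called (95% interval of the log2 change -0.07 to 0.08). After quantile normalization it was called higher at day 2 (0.12, adjusted p = 0.00452). Atp6v0a2, an isoform of the Golgi and endosomes, stood at 34.5 ± 0.592 and 33.4 ± 0.526 FPKM in KO-labelled and WT libraries at day 0 and at 37.5 ± 1.27 and 38.1 ± 0.283 FPKM at day 2, with neither difference called. At day 0 Atp6v0a2 was called higher after TPM (0.15, adjusted p = 0.00116), median-of-ratios (0.07, 0.0249) and quantile scaling (0.16, 0.000135). Atp6v0a4, the isoform known from kidney and inner ear, was the only described gene under the filter of the test. It was at 0.470, 0.526 and 0.635 FPKM in KO-labelled and 3.03, 3.00 and 2.99 FPKM in WT libraries at day 0. Atp6v0a4 at day 2 was at 0.0316, 0.0743 and 0.0341 FPKM in KO-labelled libraries and at 0 in all 3 WT libraries. At day 0 its level was 5.50-fold lower in KO-labelled cells (47 against 269 reads, 95% exact interval 4.02 to 7.66, counting error only), and with a filter of 1 FPKM in any group its log2 change was -1.38 (SE 0.07, adjusted p = 2.4e-09). In WT cells its level at day 2 was at least 90.85-fold lower than at day 0, taking 3 reads over the group as the limit that a count of 0 allows.

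The membrane ring of V0 turns with the c subunits and is coupled to V1 by the d subunit. Atp6v0d1, the gene of subunit d, was higher in KO-labelled cells, at 138 ± 1.65 FPKM against 105 ± 2.08 FPKM in WT at day 0 and 195 ± 1.92 FPKM against 119 ± 3.45 FPKM at day 2 (log2 changes 0.38 and 0.70, SE 0.02 each). Atp6v0e, a small membrane subunit, was at 74.1 ± 1.16 FPKM in KO-labelled and 58.9 ± 1.24 FPKM in WT libraries at day 0, and at 173 ± 7.85 FPKM against 133 ± 1.64 FPKM at day 2 (log2 changes 0.33 and 0.37, SE 0.03 each). Its isoform Atp6v0e2 (ENSMUSG00000039347, chr6:48537569-48541801) had the largest log2 change of the pump genes at day 0, at 5.50, 5.18 and 4.56 FPKM in KO-labelled and 0.885, 0.618 and 0.829 FPKM in WT libraries. At day 2 Atp6v0e2 was at 2.33, 2.63 and 2.28 FPKM in KO-labelled and 1.01, 0.689 and 0.686 FPKM in WT libraries. KO-labelled libraries were all above WT libraries, with log2 changes of 1.77 (SE 0.10, adjusted p = 5.41e-09) and 0.93 (SE 0.10, adjusted p = 2.29e-06). Even so, in KO-labelled cells Atp6v0e2 had less message per length than Atp6v0e, at both days.

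Atp6v0c encodes the c subunit itself, and most of its reads were listed under a copy, Atp6v0c-ps2, a processed pseudogene by name. Atp6v0c-ps2 stood at 178 ± 2.75 FPKM in KO-labelled and 299 ± 9.61 FPKM in WT libraries at day 0, and at 153 ± 10.3 FPKM against 199 ± 3.87 FPKM at day 2. Atp6v0c stood at 6.10 ± 0.436 FPKM in KO-labelled and 8.11 ± 0.855 FPKM in WT libraries at day 0, and at 3.69 ± 0.3 FPKM against 5.71 ± 0.957 FPKM at day 2. The copy took 92.64% to 95.37% of the reads of the pair in the 12 libraries, so the counting may have split near-identical sequence, and neither level is certain on its own. Both were lower in KO-labelled cells at both days (log2 changes -0.36 and -0.51 for Atp6v0c, -0.75 and -0.38 for Atp6v0c-ps2). Atp6v0b, the c'' subunit, was at 91.7 ± 2.87 FPKM in KO-labelled and 100.3 ± 3.96 FPKM in WT libraries at day 0, and at 101 ± 3.14 FPKM against 89.4 ± 7.02 FPKM at day 2. Its log2 change of -0.13 at day 0 was near the threshold (adjusted p = 0.0352). At day 2 the log2 change was 0.17 (adjusted p = 0.00848), and the libraries of the genotypes overlapped. The day 0 call was lost without KO day 0 replicate 2 (-0.13, adjusted p = 0.069), KO day 0 replicate 3 (-0.11, 0.114), WT day 0 replicate 1 (-0.10, 0.127) or WT day 0 replicate 2 (-0.13, 0.0653). It was lost as well after TPM (-0.02, 0.686), median-of-ratios (-0.10, 0.0981) or quantile scaling (-0.01, 0.799).

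In V1, the A and B subunits form the head that splits ATP. Atp6v1a, the catalytic A subunit, was at 142 ± 2.38 FPKM in KO-labelled and 124 ± 2.48 FPKM in WT libraries at day 0 (log2 change 0.20, SE 0.02, adjusted p = 1.65e-06), but at 121 ± 0.249 FPKM against 193 ± 1.07 FPKM at day 2 (log2 change -0.68, SE 0.02, adjusted p = 1.68e-11). Atp6v1b2, the B subunit, was at 88.0 ± 2.87 FPKM in KO-labelled and 84.3 ± 0.804 FPKM in WT libraries at day 0, just short of the threshold (log2 change 0.06, adjusted p = 0.0505). It passed at day 0 without KO day 0 replicate 2 (0.09, adjusted p = 0.00928), without KO day 2 replicate 3 (0.06, 0.0489) and with the replicate number as a block (0.06, 0.0491). Atp6v1b2 also passed after TPM (0.17, 0.00017), median-of-ratios (0.09, 0.0129) and quantile scaling (0.19, 2.5e-05). At day 2 Atp6v1b2 stood at 104 ± 2.03 FPKM against 78.9 ± 1.37 FPKM and was higher (log2 change 0.40).

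The stalks that hold the head were mostly lower. Atp6v1e1 (ENSMUSG00000019210, chr6:120795244-120822698), a peripheral stalk subunit, was at 47.8, 42.1 and 44.8 FPKM in KO-labelled and 64.4, 62.5 and 59.0 FPKM in WT libraries at day 0. At day 2 it was at 56.8, 50.4 and 55.2 FPKM in KO-labelled and 136, 133 and 131 FPKM in WT libraries. KO-labelled libraries were below WT libraries at both days, by a log2 change of -0.46 (SE 0.05, adjusted p = 5.33e-06) and then -1.29 (SE 0.05, adjusted p = 2.94e-10), which at day 2 was the most negative of the tested pump genes. Other V1 genes that were lower at both days were Atp6v1d of the central stalk (log2 changes -0.51 and -0.48, SE 0.03), Atp6v1f, also of the central stalk (-0.47 and -0.41, SE 0.03), and Atp6v1h (-0.53 and -0.18, SE 0.03), a subunit that regulates activity. After quantile normalization Atp6v1h was not called at day 2 (-0.05, adjusted p = 0.12). Atp6v1g1, a peripheral stalk subunit, was lower by little, with log2 changes of -0.12 and -0.06, which after quantile normalization were 0.03 (adjusted p = 0.211) and 0.09 (adjusted p = 0.0023). TPM scaling left neither called (-0.02, adjusted p = 0.417, and -0.01, adjusted p = 0.658). The day 2 call of Atp6v1g1 was lost without KO day 2 replicate 1 (-0.05, adjusted p = 0.079), KO day 2 replicate 2 (-0.04, 0.128), WT day 2 replicate 1 (-0.06, 0.06) or WT day 2 replicate 2 (-0.05, 0.11). It was lost with the replicate number as a block too (-0.06, 0.0572).

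Atp6v1c1, which links stalk and V0 and takes part in the reversible assembly of the pump, was at 34.4 ± 0.532 FPKM in KO-labelled and 43.8 ± 0.452 FPKM in WT libraries at day 0 (log2 change -0.34, adjusted p = 1.23e-06). Atp6v1c1 at day 2 stood at 26.9 ± 0.314 FPKM and 25.6 ± 1.26 FPKM (log2 change 0.07, adjusted p = 0.0698), a difference that passed without WT day 2 replicate 3 (0.10, adjusted p = 0.0242) and after TPM scaling (0.11, adjusted p = 0.00919). Atp6v1g2, an isoform of the G subunit known from neurons, was higher in KO-labelled cells, at 4.27 ± 0.239 FPKM against 2.21 ± 0.772 FPKM at day 0 and 2.93 ± 0.119 FPKM against 1.68 ± 0.297 FPKM at day 2 (log2 changes 0.74 and 0.56, SE 0.14 each). Its WT day 0 libraries were spread over 3.09, 1.89 and 1.65 FPKM.

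**Figure D4:**
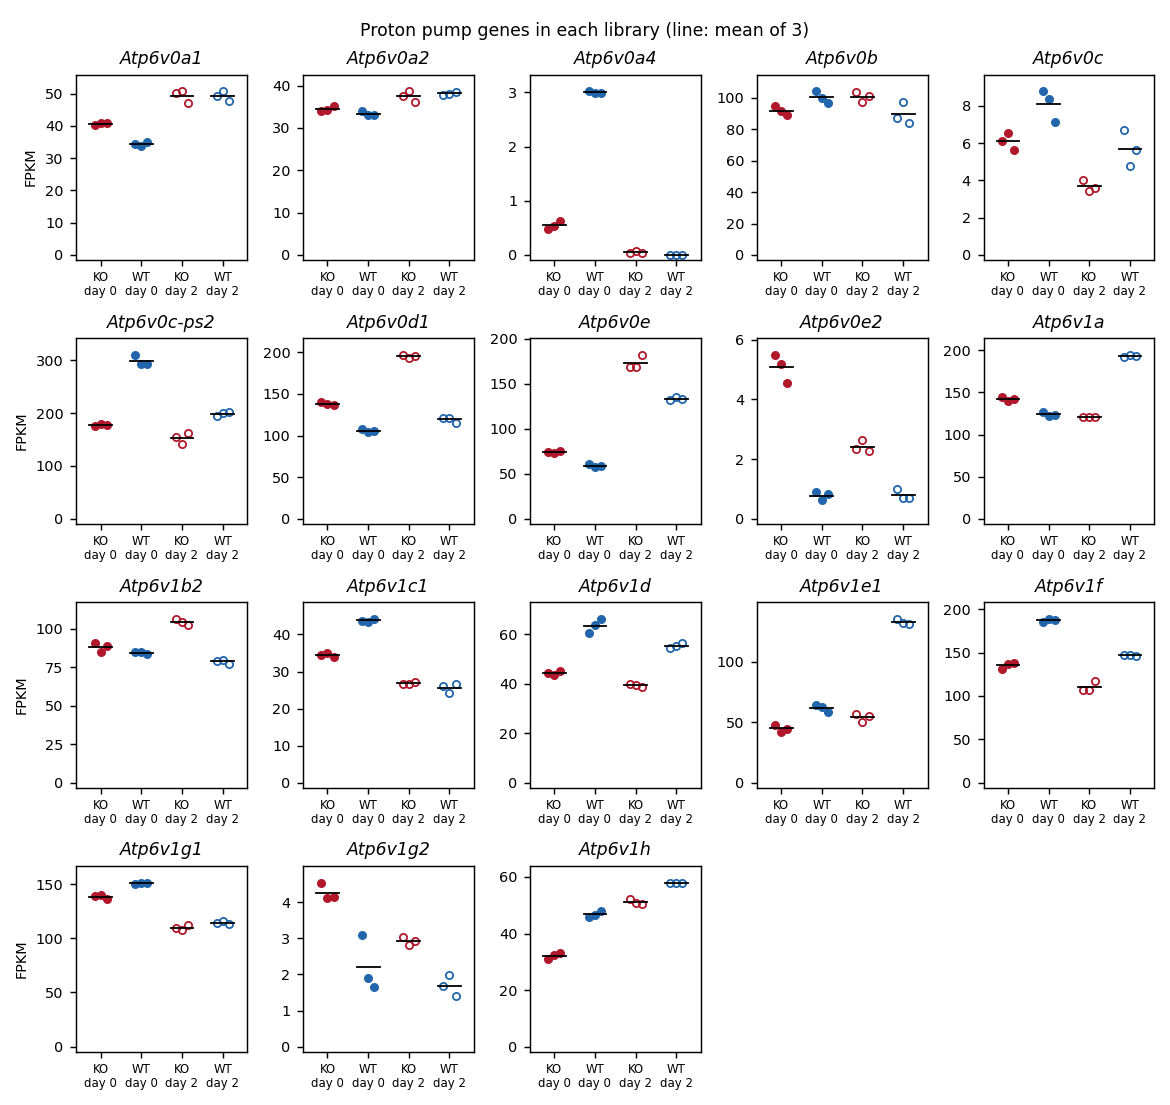
FPKM of the 9 V0 and 9 V1 genes in each of the 12 libraries, with red for KO-labelled and blue for WT, filled for day 0 and open for day 2, and lines at group means (n = 3). At day 2 Atp6v1e1 and Atp6v1a are lower in KO-labelled libraries, with WT libraries at 131 to 136 and 192 to 195 FPKM, Atp6v0d1 is higher in KO-labelled libraries, and Atp6v0e is higher at day 2 in both genotypes.

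The median change of the chromosome that holds a gene is given here beside the members, a description added after the values were seen. On chromosome 8 the median log2 change of 674 tested genes was 0.36 at day 0 and 0.40 at day 2, and its members are Atp6v0d1, Atp6v1b2 and Lamp1. The median of 597 genes on chromosome 6 was -0.40 at day 0 and -0.31 at day 2, and its tested members are Atp6v1e1, Atp6v1f and Atp6v0c-ps2, which were lower, and Atp6v0e2, which was higher. On chromosome 12, with Atp6v1d, the medians over 413 genes were -0.27 and -0.31. Only some of the chromosomes that hold members are given here. Other members went against the median of their chromosome at day 0, and the following are examples. Chromosome 15 had a median of 0.11 over 473 genes, with Atp6v1c1 at -0.34. Chromosome 5 had -0.24 over 780 genes, with Atp6v0a2 at 0.05, which was not called (adjusted p = 0.147). The part of the chromosome in these changes was not tested.

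Day 2 was compared with day 0 within each genotype, which asks how these genes respond to the cocktail. Cathepsin and Lamp message fell in both genotypes, while pump genes went both ways. In V0, 5 of 8 tested genes rose and 3 fell in KO-labelled cells, and 4 rose and 3 fell in WT cells. In V1, 3 of 9 rose and 6 fell in KO-labelled cells, and 3 rose and 5 fell in WT cells. In KO-labelled cells 9 of 28 genes were higher and 19 lower at day 2, beside 33.9% and 38.8% of all genes tested, with a median log2 change of -0.34 beside -0.03. In WT cells 7 were higher and 17 lower, beside 34.2% and 46.5% of all genes, with a median of -0.22 beside -0.11. The all-gene median in WT cells became -0.0014 after quantile normalization, and the count of members was then 8 higher and 16 lower. Of the cathepsins, 8 of 9 fell and 1 rose in KO-labelled cells, and 7 fell and 0 rose in WT cells. The 1 rise was that of Ctsz, at 13 reads over the day 2 and 4 over the day 0 libraries (log2 change 0.13, adjusted p = 0.0443). Of the 12 fits that left out 1 library each, 11 lost that call (log2 change 0.10 to 0.14), and without KO day 2 replicate 2 it remained.

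Among the 28 tested genes, the most negative log2 changes in KO-labelled cells were those of Ctsk, Ctsh (-1.25, SE 0.10), Ctsf and Ctsa, and in WT cells those of Ctsa, Ctsk, Ctsl and Lamp1. In log2, Ctsa changed by -1.05 in KO-labelled and -2.01 in WT cells (SE 0.02 each), Ctsk by -1.62 in KO-labelled and -1.81 in WT cells (SE 0.05 each), and Ctsl by -0.78 in KO-labelled and -1.55 in WT cells (SE 0.02 each). Lamp1 changed by -0.99 in KO-labelled and -1.23 in WT cells (SE 0.03 each), and Lamp2 by -0.65 in KO-labelled and -0.35 in WT cells (SE 0.02 each). Ctsd changed by -0.46 in KO-labelled and -0.13 in WT cells (SE 0.04 each), and in WT cells the fall was not called after median-of-ratios scaling (-0.03, adjusted p = 0.538). Ctsb changed by -0.38 in KO-labelled and -0.55 in WT cells (SE 0.02 each). The largest rise was that of Atp6v0e, by 1.21 in KO-labelled and 1.16 in WT cells (SE 0.03 each). Atp6v0a1, Atp6v0a2, Atp6v0d1, Atp6v1e1 and Atp6v1h rose in both genotypes too, by 0.12 to 0.65 in KO-labelled and 0.18 to 1.09 in WT cells. Atp6v0c, Atp6v0c-ps2, Atp6v1c1, Atp6v1d, Atp6v1f and Atp6v1g1 fell in both genotypes. Their log2 changes were -0.60 to -0.16 in KO-labelled and -0.75 to -0.20 in WT cells. Atp6v0b and Atp6v1b2 rose in KO-labelled cells (0.13 and 0.24) and fell in WT cells (-0.17 and -0.09), and Atp6v1a did the reverse (-0.24 in KO-labelled and 0.64 in WT cells). Both WT falls were lost after median-of-ratios scaling, where Atp6v0b changed by -0.07 (adjusted p = 0.275) and Atp6v1b2 by 0.004 (adjusted p = 0.9). The KO-labelled rise of Atp6v0b was lost without KO day 0 replicate 2 or 3 or KO day 2 replicate 1 or 3 (0.11 to 0.13, adjusted p 0.0683 to 0.111). It was lost as well after TPM (0.09, adjusted p = 0.116) and quantile scaling (0.08, adjusted p = 0.154).

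**Figure D5:**
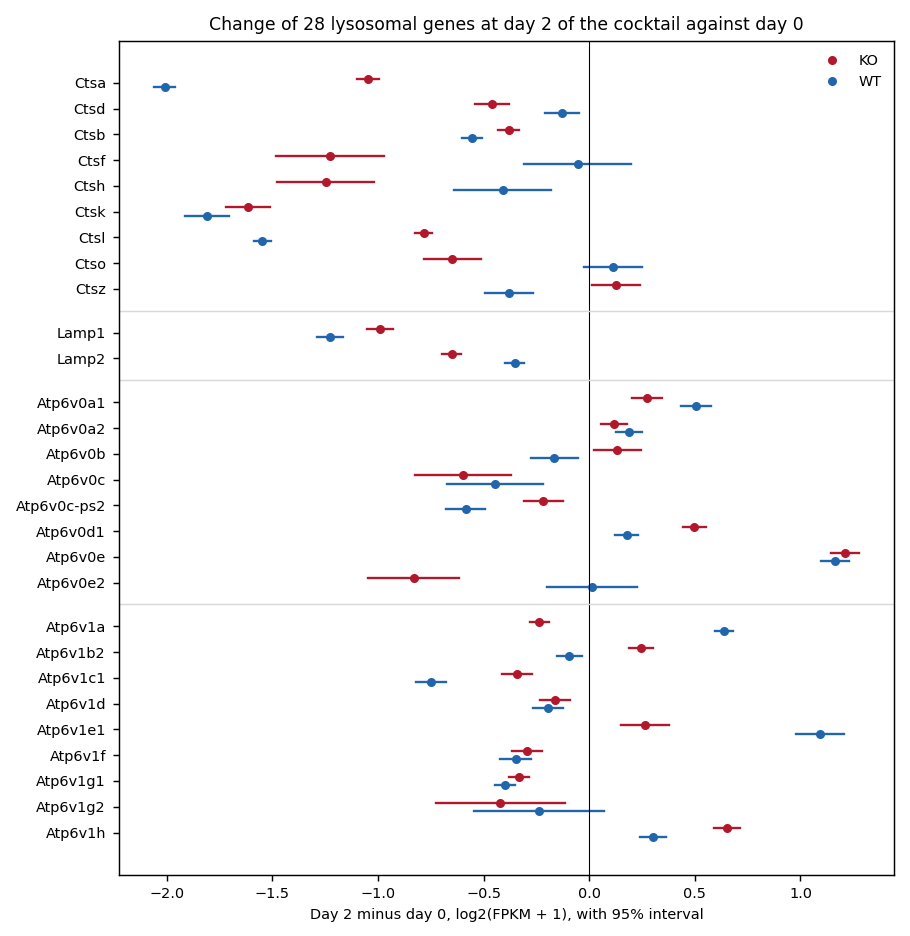
Day 2 minus day 0, in log2(FPKM + 1), for the 28 genes tested, in KO-labelled (red, upper) and WT libraries (blue, lower), with 95% intervals from 3 libraries per group. Cathepsin and Lamp genes lie to the left apart from Ctsz in KO-labelled and Ctso in WT libraries, Atp6v0e lies to the right in both, and Atp6v1a, Atp6v1b2 and Atp6v0b lie on opposite sides of 0, with Atp6v1b2 in WT turning to just above 0 after median-of-ratios scaling.

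The response differed between genotypes in 21 of 28 genes by the interaction term, 12 with a higher and 9 with a lower change in KO-labelled cells, beside 40.8% and 33.0% of all genes tested. Ctsf was the only one of the 28 past 2-fold, at -1.17 in log2 (SE 0.16, adjusted p = 4.13e-05): it fell by 1.23 in KO-labelled cells and was not called in WT cells (-0.05, 95% interval -0.31 to 0.20), where it was low at both days. Ctsa (0.96, SE 0.03) and Ctsl (0.76, SE 0.03) fell less in KO-labelled cells, and Atp6v1a (-0.87, SE 0.03) and Atp6v1e1 (-0.83, SE 0.07) had the lower change there. Ctso, at -0.76 (SE 0.09), fell by 0.65 in KO-labelled cells and was not called in WT cells (0.11, adjusted p = 0.113), where it rose without WT day 0 replicate 2 (0.18, adjusted p = 0.0112) and after median-of-ratios (0.20, 0.0164) and quantile scaling (0.37, 0.000161). Atp6v0e2, at -0.84 (SE 0.14), fell by 0.83 in KO-labelled cells and was not called in WT cells (0.01). For Ctsh the interaction depended on the floor, at -0.84 (adjusted p = 0.000274) with a pseudocount of 1, 0.24 (adjusted p = 0.618) with 0.1 and 1.07 (adjusted p = 0.172) on recovered reads. Atp6v1g2 was not called (-0.18, adjusted p = 0.415) but passed without WT day 0 replicate 1 (-0.37, adjusted p = 0.0236), and it fell by 0.42 in KO-labelled cells, a call that was lost without KO day 0 replicate 1 (-0.38, adjusted p = 0.0545) and after quantile normalization (-0.29, adjusted p = 0.0667). In WT cells Atp6v1g2 was at -0.24 and passed without WT day 0 replicate 3 (-0.36, adjusted p = 0.0316). The interactions of Atp6v0a2 (-0.07) and Atp6v1g1 (0.07) were not called and passed without KO day 2 replicate 2 (-0.10, adjusted p = 0.0407, and 0.08, adjusted p = 0.0312). The interaction of Atp6v0a2 also passed with all libraries after TPM (-0.13, adjusted p = 0.0239), median-of-ratios (-0.11, 0.0159) and quantile scaling (-0.12, 0.0173).

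Many lysosomal genes carry in their promoters the letters TCACGTGA, the core of the CLEAR element that TFEB and its relatives bind. In the RefSeq promoter windows of GRCm38.p6, which run from 250 bases before to 50 after each annotated start, 21 of the 29 described genes had an entry. TCACGTGA was present in 5 of the 21 (23.8%), against 304 of 27025 genes with an entry (1.12%), and the shorter CACGTG, which lies inside it, in 9 of 21 (42.9%), against 2187 of 27025 (8.09%). Both motifs read the same on either strand. The matches of Ctsa and Atp6v1a lie at another annotated start, inside the gene. The 5 windows are printed because these genes share the element, with TCACGTGA in capitals, read 5′ to 3′ on the gene's strand.
Ctsd, chr7:142387908-142387937, minus strand: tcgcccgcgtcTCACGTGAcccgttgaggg
Ctsa, chr2:164833749-164833778, plus strand: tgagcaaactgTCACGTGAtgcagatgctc
Atp6v0d1, chr8:105566050-105566079, minus strand: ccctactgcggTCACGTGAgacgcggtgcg
Atp6v0e, chr17:26676387-26676416, plus strand: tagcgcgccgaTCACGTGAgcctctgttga
Atp6v1a, chr16:44139373-44139402, minus strand: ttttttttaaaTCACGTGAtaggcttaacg

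The 5 genes did not move as a block. Ctsd, Atp6v0d1 and Atp6v0e were higher in KO-labelled cells at both days, Atp6v1a was higher at day 0 and lower at day 2, and Ctsa lower at day 0 and higher at day 2. The shorter CACGTG was also found in Atp6v0b, Ctsf, Ctsl and Lamp1. Neither motif was in the windows of Ctsz and Ctsk, a statement about these letters and windows only. The 250 bases before each of these starts are printed because these are cathepsins that differed strongly in opposite directions, with 58.8% G and C and 7 CpG dinucleotides upstream of Ctsz and 43.2% and 0 upstream of Ctsk.
Ctsz, chr2:174439040-174439289, minus strand: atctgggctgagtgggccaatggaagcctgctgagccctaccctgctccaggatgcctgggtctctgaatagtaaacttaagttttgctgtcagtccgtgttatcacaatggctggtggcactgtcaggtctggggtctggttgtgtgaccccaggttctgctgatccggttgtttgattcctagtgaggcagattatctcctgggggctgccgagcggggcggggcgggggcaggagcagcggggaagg
Ctsk, chr3:95498960-95499209, plus strand: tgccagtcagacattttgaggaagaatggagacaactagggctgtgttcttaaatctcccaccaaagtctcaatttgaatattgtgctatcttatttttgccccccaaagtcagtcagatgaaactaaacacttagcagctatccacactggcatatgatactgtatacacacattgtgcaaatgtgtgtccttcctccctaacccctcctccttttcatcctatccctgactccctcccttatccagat

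Regulators of the lysosome did not all go one way. To be read beside the list counts, 38.3% of all genes tested were higher and 44.2% lower in KO-labelled cells at day 0. At day 2, 40.8% were higher and 40.6% lower. No list was tested against these shares. Of 7 tested genes of the TFEB family and its partners, 3 were higher and 4 lower in KO-labelled cells at day 0, and 4 higher and 2 lower at day 2. Tfeb, the transcription factor itself, was at 12.9 ± 0.719 FPKM in KO-labelled and 17.7 ± 1.44 FPKM in WT libraries at day 0, and at 13.7 ± 1.22 FPKM against 42.6 ± 0.235 FPKM at day 2 (log2 changes -0.42 and -1.58, SE 0.07 each). Mitf, of the same family, was at 2.88 ± 0.181 and 3.44 ± 0.410 FPKM in KO-labelled and WT libraries at day 0, and at 4.26 ± 0.0308 and 2.25 ± 0.134 FPKM at day 2. Flcn, the folliculin gene, whose product keeps TFEB in the cytosol when nutrients are plentiful, was higher at both days (log2 changes 1.04 and 0.79, SE 0.04 each), as was its partner Fnip1 (0.88 and 0.33). Of 10 tested genes of Ragulator, the Rag GTPases and mTORC1, which sense nutrients at the lysosome, 3 were higher and 4 lower at day 0, and 1 higher and 6 lower at day 2. Among them the mTORC1 activator Rheb was at 31.3 ± 0.376 FPKM in KO-labelled and 53.8 ± 1.49 FPKM in WT libraries at day 0, and at 29.5 ± 0.584 FPKM against 65.8 ± 1.5 FPKM at day 2. Of 20 autophagy genes, 11 were higher and 5 lower at day 0, and 11 higher and 6 lower at day 2, with Map1lc3b, the LC3B gene, at 132 ± 3.72 FPKM against 65.3 ± 0.643 FPKM and then 129 ± 1.96 FPKM against 37.5 ± 1.91 FPKM.

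Other soluble lysosomal enzymes were mostly higher in KO-labelled cells, as the cathepsins were. Across all genes tested 38.3% were higher and 44.2% lower at day 0, and 40.8% and 40.6% at day 2. Of 22 tested glycosidases and sulfatases, 17 were higher and 5 lower at day 0, and 20 higher and 2 lower at day 2, with a median log2 change of 0.89 and 0.90. Hexa, the alpha subunit of beta-hexosaminidase, was at 208 ± 1.45 FPKM in KO-labelled and 34.6 ± 0.677 FPKM in WT libraries at day 0, and at 108 ± 3.63 FPKM against 23.2 ± 1.16 FPKM at day 2. Gaa, which breaks down glycogen in lysosomes, was at 569 ± 16.9 FPKM against 104 ± 4.75 FPKM at day 0 and at 128 ± 1.64 FPKM against 46.1 ± 0.958 FPKM at day 2. Of 17 lipid and peptide hydrolases and cofactors, 14 were higher and 3 lower at day 0 (median 0.89), and 10 higher and 3 lower at day 2 (median 0.56), among the higher the lysosomal phospholipase Pla2g15 (log2 changes 1.41 and 1.54, SE 0.02 each) and among the lower the lysosomal nuclease gene Dnase2a (-1.74 and -0.18, SE 0.05 each). Of 23 membrane proteins and transporters, 17 were higher and 2 lower at day 0, and 14 higher and 6 lower at day 2, with Ctns, the cystine exporter, at 37.1 ± 0.136 FPKM against 19.2 ± 0.311 FPKM and then 52.6 ± 2.13 FPKM against 15.8 ± 0.961 FPKM. Some of this list turned between the days. The log2 changes at day 0 and day 2 were 1.34 and -0.44 for Cln3, and 0.36 and -1.63 for Mfsd12. For Tpcn2 they were -0.09, not called, and 1.97.

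Hydrolases reach the lysosome through mannose 6-phosphate receptors, and the pair of receptors moved in opposite directions. Igf2r, the large receptor, was at 374 ± 2.91 FPKM in KO-labelled and 161 ± 2.24 FPKM in WT libraries at day 0 and at 342 ± 2.94 FPKM against 161 ± 2.2 FPKM at day 2 (log2 changes 1.21 and 1.08, SE 0.02 each). M6pr, the small receptor, was at 28.5 ± 0.932 FPKM against 50.05 ± 0.801 FPKM at day 0 and at 31.4 ± 0.566 FPKM against 50.4 ± 0.344 FPKM at day 2 (log2 changes -0.79 and -0.67, SE 0.03 each). Over the 10 sorting genes, 6 were higher and 4 lower at day 0, and 6 higher and 3 lower at day 2. Genes of pump assembly and accessory proteins, 14 in all, gave 7 higher and 5 lower at day 0, and 8 and 5 at day 2. Beside both counts stand 38.3% higher and 44.2% lower of all genes tested at day 0, and 40.8% and 40.6% at day 2. Dmxl2, a rabconnectin that helps to assemble the pump, was at 0.183 ± 0.0738 FPKM in KO-labelled and 1.17 ± 0.0124 FPKM in WT libraries at day 0, and at 0.322 ± 0.0590 FPKM against 5.81 ± 0.229 FPKM at day 2, while Oxr1, whose product binds V1, was higher at both days (log2 changes 1.28 and 1.74, SE 0.03 each).

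A list of cathepsin inhibitors and related serpins was examined as well, beside all-gene shares of 38.3% higher and 44.2% lower at day 0. At day 2 the shares were 40.8% and 40.6%. Cst3, the gene of the secreted inhibitor cystatin C, stood at 2592 ± 18.6 FPKM in KO-labelled and 534 ± 9.04 FPKM in WT libraries at day 0, and at 1867 ± 79.99 FPKM against 314 ± 3.08 FPKM at day 2 (log2 changes 2.28 and 2.57, SE 0.03 each). Per length, its message was above the sum of the 9 cathepsins in KO-labelled cells at both days, and below that sum in WT cells at both days. The order in WT cells rests on Ctsa and Ctsd together, a serine and an aspartic protease. In WT libraries Ctsa averaged 362 and Ctsd 138 FPKM at day 0, and 89.0 and 126 FPKM at day 2. Of the 5 inhibitor genes tested, 2 were higher and 2 lower at day 0, and 4 higher and 1 lower at day 2, the lower one being Serpinb9 (log2 change -1.04, SE 0.06).

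The state of the cells differed between the groups in which these genes were compared. Fat cell markers summed to 197 to 209 FPKM in KO-labelled and 69.2 to 74.4 FPKM in WT libraries at day 0, and to 398 to 408 FPKM against 8492 to 8678 FPKM at day 2, with Retn, the resistin gene, listed at 0 in the WT day 0 libraries. The day 0 direction of this sum rests on Lpl, the lipoprotein lipase gene, with means of 190.4 FPKM in KO-labelled and 55.9 FPKM in WT libraries. Without Lpl the sum was 8.82 to 14.7 FPKM in KO-labelled and 15.7 to 16.4 FPKM in WT libraries at day 0, and 126 to 132 FPKM against 6064 to 6256 FPKM at day 2. The adipogenic transcription factor gene Pparg averaged 2.85 and 10.2 FPKM in KO-labelled and WT libraries at day 0. Of 9 tested, 2 were higher and 1 lower in KO-labelled cells at day 0, and 0 higher and 9 lower at day 2, among them Fabp4, the fatty acid binding protein, at 10.3 ± 0.367 FPKM against 2975 ± 79.2 FPKM. Fibroblast and preadipocyte markers summed to 35249 to 35992 FPKM in KO-labelled and 13633 to 13949 FPKM in WT libraries at day 0, and to 12230 to 12472 FPKM against 2197 to 2203 FPKM at day 2. Of the 10, 8 were higher and 1 lower at day 0, and 10 higher and 0 lower at day 2, such as Col3a1 (log2 changes 2.85 and 2.02, SE 0.03 each). For both marker lists the all-gene shares were 38.3% higher and 44.2% lower at day 0, and 40.8% and 40.6% at day 2. The part of this difference in cell state in the changes of the lysosomal genes was not tested.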

How the data were processed

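The 12 libraries were made from total RNA of 3T3-L1 cells, 3 for each of 4 groups. The authors deposited FPKM values for 52505 genes, of which 51633 have a symbol. The submitters' processing notes list, with no roles, MACS2 2.1.0, BWA 0.7.12, HTSeq 0.6.1, TopHat2 2.0.12, Bowtie2 2.2.3, FastQC, CASAVA and build mm10. The sources used here do not give the strand setting or the annotation. Whole reads were recovered from the FPKM steps for all 30916 genes above 0 (tolerance 0.001 of a read), and exact intervals on them cover counting error only.

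Values were analysed as log2(FPKM + 1) for the 12961 genes that averaged 1 FPKM or more across all 12 libraries. The 4 group means were fitted in R 4.3.3 with limma 3.58.1, letting the variance follow the level (8 residual degrees of freedom), and 2-sided p-values were adjusted by Benjamini-Hochberg over all genes tested, with a threshold of 0.05. Fold changes on this scale understate those of low genes. Fits were tested on simulated data. Positions and promoter sequences are from RefSeq on GRCm38.p6, with all 47 genes placed by symbol.

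The members and gene lists were chosen with earlier results of these data known. Every member with a mean of at least 1 FPKM in any group is named. Values of each library are given for members called and at least 2-fold changed between genotypes, or with an interaction of at least 2-fold, and for the untested Atp6v0a4. From each list up to 4 called genes with the largest changes could be named. The sums without Atp6v0c-ps2 or Lpl, the chromosome medians, the values of Cstb, the comparison of Cst3 with the cathepsin sum and the order of levels were added after values were seen.

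Same-numbered libraries are not said to share a culture, so no replicate block was used in the reported fit. Alternatives were a pseudocount of 0.1, other filters, scaling by TPM, by median of ratios or by quantiles, a fit without the variance trend, a fit to the compared libraries alone, a replicate block, voom on recovered reads, a 2-fold minimum, the treat test against a 1.5-fold difference, and each library left out in turn. Libraries held 18075127 to 23117459 recovered reads, and genes near 0 FPKM rest on few of them.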

Additional observations from a re-analysis of the deposited data

Results flagged for a closer look

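In 4 members the difference between genotypes at day 2 departed from that at day 0 by an interaction past the threshold that was at least 2-fold or joined calls in opposite directions at the 2 days. The condition on opposite calls was chosen after the values were seen. Of the 28 members tested, 21 passed the threshold of the interaction, so passing alone does not single these out. Ctsf had the interaction of -1.17 in log2, from a difference of 2.08 at day 0 and 0.91 at day 2. Ctsa had 0.96, from -0.28 at day 0 and 0.69 at day 2. Atp6v1a had -0.87, from 0.20 at day 0 and -0.68 at day 2. Atp6v0b had 0.30, from -0.13 at day 0 and 0.17 at day 2, and its day 0 call was lost when any of 4 libraries was left out, as given with its values.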

How the results depend on the processing

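Of 3312 alternative values for 140 results of the members, 3142 kept direction and side of the threshold, 127 lost the call, 23 gained it and 20 turned direction, 6 of these from a called value. Counts of called members fell by more than 1.5 times only under the fold limits. With the treat test against 1.5-fold, 9 members were higher and 2 lower in KO-labelled against WT cells at day 0, and 11 higher and 3 lower at day 2. At day 2 against day 0 it gave 1 higher and 7 lower in KO-labelled cells, 3 and 5 in WT cells, and 2 and 3 in the interaction. With a 2-fold minimum the counts were 7 and 1, 5 and 2, 1 and 4, 2 and 4, and 0 and 1 in the same order. Over all 12961 genes tested the 2-fold counts were 1345 and 1546, 1671 and 1485, 708 and 906, 1203 and 1953, and 1655 and 1129. The treat test over all genes gave 1967 and 2383, 2343 and 2256, 1034 and 1329, 1748 and 2704, and 2180 and 1520. With each library left out in turn, the higher and lower counts were 15 to 16 and 10 to 11 at day 0, 16 to 17 and 8 to 9 at day 2, 7 to 9 and 18 to 19 over time in KO-labelled cells, 7 to 8 and 17 to 18 in WT cells, and 12 to 13 and 9 to 10 in the interaction.

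With the replicate block the counts were 16 and 11 at day 0, 16 and 8 at day 2, 8 and 19 in KO-labelled cells, 7 and 17 in WT cells and 12 and 9 in the interaction. Deviations of same-numbered libraries correlated at -0.055 to 0.087 across genes, and the numbers were not taken as pairs. Each library was also compared with those of the other groups, and 6 of 12 correlated best with their own number. That count does not decide on pairing, since no rate expected without pairs was worked out.

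The values that turned direction were as follows, on the log2 scale, and the cause was not tested. In KO-labelled against WT cells at day 0, quantile normalization gave 0.0296 for Atp6v1g1, -0.0003 for Plin1 and 0.0372 for Tpcn2, and TPM scaling 0.0103 for Tpcn2. At day 2, quantile normalization gave 0.0872 for Atp6v1g1 and 0.0484 for Atp6v0a2, TPM scaling 0.0185 for Atp6v0a2 and 0.0198 for Rptor, and median-of-ratios scaling -0.0114 for Atp6v0a1. At day 2 against day 0 in WT cells, Atp6v1b2 was at 0.004 with median-of-ratios scaling. For the interaction, TPM scaling gave -0.0067 for Atp6v1f, -0.0146 for Atp6v0e and -0.0256 for Atp6v1d, median-of-ratios scaling -0.006 for Atp6v1d, and quantile normalization -0.1094 for Ctsk. The Ctsh interaction was 0.2405 with a pseudocount of 0.1 and 1.071 with voom. With each library left out in turn, ranges that crossed 0 were -0.0163 to 0.0381 for Atp6v0a1, KO vs WT at day 2, -0.065 to 0.0346 for Rptor at day 2, -0.0139 to 0.0646 for Serpinb9 and -0.0136 to 0.5561 for Fabp4 at day 0, and, over time in WT cells, -0.0717 to 0.0554 for Atp6v0e2 and -0.1312 to 0.0335 for Ctsf.

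Depth limits the values of Ctsz in KO-labelled cells, of Ctsh and Ctsf in WT cells and of Atp6v0a4 at day 2, which rest on few or no reads.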
